A study of Mus musculus with 24 samples.

Results

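Cells that carried the Venus reporter were compared with cells that did not in the duodenum of Guca2a-Venus mice. The members are the 6 libraries whose labels give the tissue Duodenum, 3 labelled GFP positive and 3 labelled GFP negative, of 24 libraries in the series. The other 18 are the same pair of sorts from the jejunum, ileum and colon. All mice carried a bacterial artificial chromosome in which the coding sequence of *Guca2a* was replaced by the yellow fluorescent protein Venus, from a single founder line backcrossed to C57Bl6J. The first 3 cm of the small intestine were digested to single cells, and highly fluorescent and non-fluorescent cells were sorted after dead cells, debris and CD45-positive immune cells had been gated out. The age and sex of the mice are not given in the labels, and the labels do not say which libraries came from the same mouse, so the p values measure the spread between these libraries. The negative sort is a mixture of non-fluorescent cells, and Venus reports the activity of the transgene, not the guanylin peptide itself.

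*Guca2a* encodes guanylin, a peptide secreted into the gut lumen that binds guanylyl cyclase C on epithelial cells, raises cyclic GMP and through it chloride, bicarbonate and water secretion. The duodenal epithelium is built of absorptive enterocytes and of secretory cells: goblet cells release mucus, Paneth cells at the crypt base release lysozyme and defensins, enteroendocrine cells release hormones and tuft cells sense the lumen. Stem and dividing cells of the crypt replace all of them over time.

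The reporter was driven by the regulatory sequence of *Guca2a*, so the 250 bases before the RefSeq start of the endogenous gene are shown ( GRCm38.p6, chr4:119637482-119637731, plus strand), beside those before *Muc2*, the main secreted mucin (chr7:141690090-141690339, plus strand). Capitals mark AGATAA read on either strand, the core letters bound by GATA factors, which each window holds 2 times and which 11.2% of all 32851 promoter windows of 300 bases hold at least once.
Guca2a: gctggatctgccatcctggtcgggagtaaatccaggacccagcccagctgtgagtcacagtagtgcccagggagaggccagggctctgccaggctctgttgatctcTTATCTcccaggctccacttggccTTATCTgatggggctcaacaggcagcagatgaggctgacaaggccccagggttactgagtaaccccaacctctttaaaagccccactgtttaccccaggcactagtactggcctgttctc
Muc2: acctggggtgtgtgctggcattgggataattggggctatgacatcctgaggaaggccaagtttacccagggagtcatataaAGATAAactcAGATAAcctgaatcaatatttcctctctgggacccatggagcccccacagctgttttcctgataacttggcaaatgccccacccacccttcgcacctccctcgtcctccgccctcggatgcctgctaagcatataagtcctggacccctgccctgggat
The GATA factors themselves did not pass the test in either direction, with log2 differences of -0.56 ± 0.31 for *Gata4*, 0.54 ± 0.30 for *Gata6* and 0.84 ± 0.38 for *Gata5* (edgeR adjusted p = 0.223, 0.221 and 0.12).

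Reads counted on genes numbered 7458616 to 11165593 in the positive libraries and 15086863 to 21114053 in the negative ones, and mitochondrial RNA took 32.3% to 46.6% and 64.6% to 76.4% of them. Levels below are normalised CPM, which are counts relative to a library size adjusted with the trimmed mean of M values, always for replicates 1, 2 and 3 of a sort, and 3 counts correspond to 0.195 to 0.338 normalised CPM. Differences are log2 of positive over negative cells with their standard error (SE) from an edgeR quasi-likelihood fit, and p values were adjusted over 15044 tested genes. At an adjusted p of 0.05, 1336 genes were higher in positive cells (8.88% of those tested) and 1216 were lower (8.08%), 293 and 228 of them by a log2 difference of at least 3. The counts depend on the scaling, since library size alone gave 2267 higher and 350 lower genes, so that 86.6% of calls were higher against 52.4% as reported here. The median log2 difference of all tested genes was -0.16 as reported here and 0.27 by library size. Without positive replicate 1, 548 genes were lower, and without negative replicate 2, 686. In bulk RNA such as this, fewer cells of a type and less RNA per cell cannot be told apart.

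As a check of the sort, *Guca2a* (chromosome 4, 119637704 to 119639471; gene positions are from GENCODE M21 on GRCm38) stood at 248, 393 and 216 normalised CPM in the positive libraries and 2.67, 6.74 and 6.42 in the negative ones. Its log2 difference was 5.75 ± 0.40 (adjusted p = 1.74e-11). *Guca2b*, which encodes the related peptide uroguanylin, had more counts, at 698, 990.5 and 1035 against 48.1, 53 and 56.7 (log2 4.11 ± 0.34, adjusted p = 4.78e-10). Per kilobase of exon the mean level of *Guca2b* in positive cells was 1044 and that of *Guca2a* 481 normalised CPM. Every positive library lay above every negative one for both peptides. Their receptor *Gucy2c* was present in both sorts, at 54.6, 68.8 and 82.6 and 48.6, 44.4 and 53.7, and did not pass the test (log2 0.49 ± 0.26, adjusted p = 0.193). Of the channels and exchangers that cyclic GMP acts on, the chloride channel *Cftr* was lower in positive cells (18.9, 20.3 and 33.5 against 69.6, 53.4 and 59.4, log2 -1.33 ± 0.37, adjusted p = 0.0136), a call that was lost without positive replicate 1 or 2 (adjusted p of up to 0.0772) and with library size alone (0.161). The cyclic GMP phosphodiesterase *Pde5a* was lower too (23.9, 14.2 and 21.5 against 35, 39.7 and 31.8, adjusted p = 0.0136, up to 0.0923 without negative replicate 2 or positive replicate 2, and 0.424 with library size alone).

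**Figure D1:**
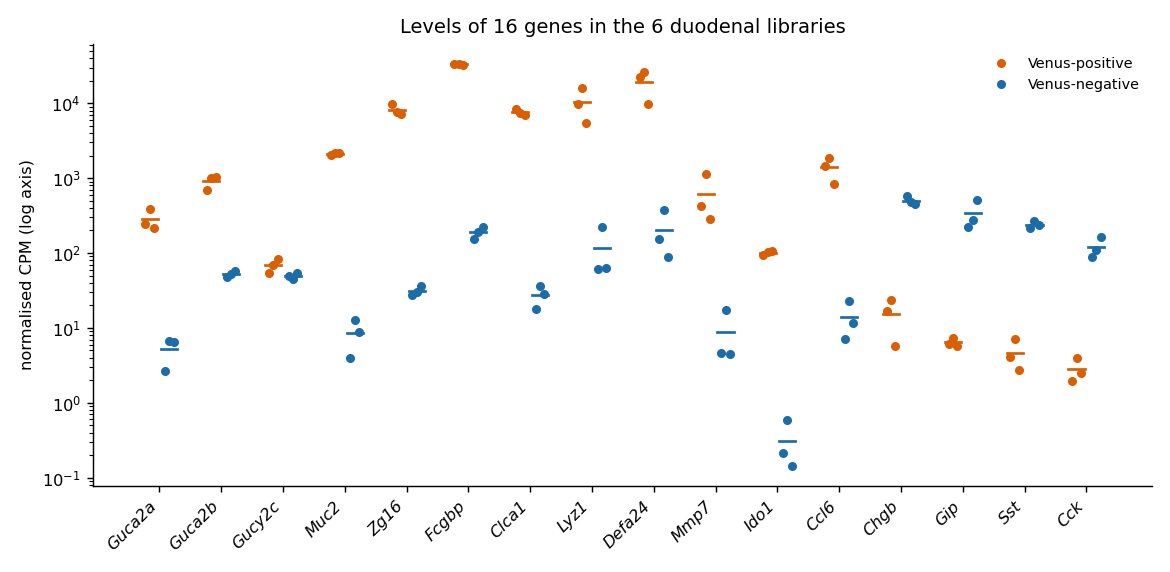
Normalised CPM (log axis) of 16 genes in the 6 duodenal libraries, with 1 point per library, orange for Venus-positive and blue for Venus-negative, and a bar at each group's mean. The goblet and Paneth genes lie far higher in all 3 positive libraries, the points of *Gucy2c* lie close together, and the 4 enteroendocrine genes at the right lie the other way round.

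Mucus genes were among the most abundant coding RNAs of the positive cells. Of 22 tested genes of a mucus list, 17 were higher and 0 lower, with a median log2 difference of 6.24 against -0.16 over all genes. The list holds secreted proteins of the mucus layer and other genes, such as *Fer1l6*, *Bcas1*, *Capn9* and *S100a6*, that do not encode such proteins. Together the list took 19.4, 18.4 and 17.7% of the counts on nuclear protein-coding genes in the positive libraries and 0.217, 0.297 and 0.271% in the negative ones. *Fcgbp*, the Fc-gamma binding protein that is cross-linked into the mucus gel, alone reached 33361, 33222 and 32429.6 normalised CPM against 154, 192 and 222 (log2 7.45 ± 0.54, adjusted p = 4.49e-11). The 3 positive libraries differed little in it. *Muc2* (chromosome 7, 141690340 to 141754693) stood at 2034, 2156 and 2156 against 4.0, 12.8 and 8.72 (log2 7.96 ± 0.55, adjusted p = 1.74e-11), and the lectin *Zg16* (chromosome 7, 127050156 to 127087328), which binds bacteria in the mucus, at 9755, 7627 and 7087 against 27.1, 29.8 and 35.8 (log2 8.04 ± 0.53, adjusted p = 1.42e-11). *Clca1*, a secreted metalloprotease that remodels mucus, was at 8292, 7520.4 and 7057 against 18, 36.2 and 28.1, and the trefoil peptide *Tff3* at 3496, 3391 and 2311 against 47.1, 48.8 and 53.1. The ferlin *Fer1l6* had 519, 438 and 310.1 against 1.89, 4.08 and 2.52 and *Bcas1* 242, 137 and 91.8 against 0.351, 0.389 and 1.01 (log2 8.07 ± 0.63, adjusted p = 1.86e-10). The gastric mucin and trefoil genes did not follow, since *Muc6* and *Tff2* had log2 differences of -1.80 ± 1.67 and -1.90 ± 0.96 (adjusted p = 0.495 and 0.18), and *Muc5ac*, *Muc5b* and *Tff1* were too low to test. In a wider list of Brunner's gland and gastric markers, 2 of 7 tested genes were higher (28.6%, beside 8.88% of all genes) and 0 lower. The median log2 difference of that list was -1.02. Of 4 transmembrane mucins tested, *Muc13* was higher (925, 842 and 989 against 172, 237 and 302, adjusted p = 0.000238) and so was the gene listed as *Muc3a* (38.3, 38.3 and 26.8 against 1.82, 1.17 and 1.23), while *Muc3* and *Muc4* did not pass. Reads that fit both *Muc3a* and *Muc3* are not in the counts, so the levels of both are uncertain.

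Enzymes that decorate mucins were higher too. Of 47 tested genes of mucin-type O-glycosylation, 27 were higher and 0 lower (median 1.38), and 9 of 11 polypeptide N-acetylgalactosaminyltransferases (the Galnt family), which add the first sugar, were higher. *Galnt5* stood at 83.9, 71.1 and 49.97 against 1.54, 1.69 and 0.721 (log2 5.68 ± 0.55, adjusted p = 1.22e-08) and *Galnt12* at 81.8, 61.7 and 59.8 against 7.09, 2.53 and 5.19 (log2 3.78 ± 0.46, adjusted p = 6.41e-07). *C1galt1*, which builds the core 1 chain, and its chaperone *C1galt1c1* both had a log2 difference of 2.52 (adjusted p = 4.00e-07 and 0.000149). The branching enzyme *Gcnt3* was at 264, 219 and 207 against 7.23, 10.4 and 11.2 (log2 4.58 ± 0.36, adjusted p = 2.32e-10). Of genes linked to sulfation, the sulfate transporter *Slc26a2* was at 182, 210.2 and 121 against 22.4, 24.6 and 22.6 and the sulfotransferase *Chst4* at 68.4, 51.8 and 62.7 against 4.42, 2.72 and 5.41 (adjusted p = 8.15e-09 and 1.36e-06), whereas of 4 tested Chst family members 1 was higher and 1 lower. *Gfpt1*, which opens the hexosamine pathway that supplies the sugars, was 3.65-fold higher (log2 1.87 ± 0.27, adjusted p = 8.31e-06).

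The protein factory behind secretion was higher in part. Of 36 tested genes of the unfolded protein response and of degradation from the endoplasmic reticulum (ER), 19 were higher and 0 lower (median 1.31). *Ern2*, the IRE1-beta sensor of mucus-making cells, stood at 91.9, 73.3 and 49.9 against 1.33, 1.36 and 2.67 (log2 5.32 ± 0.54, adjusted p = 2.59e-08), while its ubiquitous relative *Ern1* differed by 0.96 ± 0.32 (adjusted p = 0.0362, and up to 0.167 without negative replicate 1 or 3 or positive replicate 1). The membrane-bound transcription factors *Creb3l1* and *Creb3l4* were at 60.02, 50.2 and 45.7 against 4.56, 2.66 and 4.61 and at 33.3, 29.4 and 22.2 against 2.1, 1.23 and 1.44. *Edem3*, a mannosidase that marks misfolded glycoproteins, was at 151, 139 and 109 against 12.5, 7.0 and 13.6 (log2 3.59 ± 0.30, adjusted p = 6.56e-10). *Xbp1*, the target of IRE1, was higher by a log2 of 1.51 ± 0.28 (adjusted p = 0.000378). Among 36 chaperones and disulfide enzymes 12 were higher and 1, the peroxiredoxin *Prdx4*, was lower (adjusted p = 0.0445, up to 0.181 without any library but positive replicate 2, and 0.156 with library size alone). Leaving out positive replicate 1 left 7 higher. *Txndc5* (486, 479 and 437 against 31.7, 23.3 and 37, log2 3.93 ± 0.35, adjusted p = 2.71e-09) and the sulfhydryl oxidase *Qsox1* (143, 166 and 200.1 against 11.6, 16.5 and 12.5, log2 3.64 ± 0.36, adjusted p = 1.54e-08) led them. The most abundant ER chaperones did not pass the test: *Hspa5* (BiP) had a log2 difference of 0.78 ± 0.42, *Hsp90b1* of 0.39 ± 0.29, *Calr* of 0.55 ± 0.31 and *P4hb* of 0.63 ± 0.37 (adjusted p = 0.204, 0.373, 0.234 and 0.252). The translocon and signal peptidase list had 4 of 37 higher and 0 lower, a share of 10.8% beside the 8.88% of all genes, falling to 1 of 37 without negative replicate 1, negative replicate 2 or positive replicate 3 and to 2 without negative replicate 3. Library size alone gave 10 higher and the removal of length and GC trends 8.

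The ER stress response element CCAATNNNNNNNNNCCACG, searched on both strands of the RefSeq promoter windows (250 bases before to 50 after the start), was found in 0.119% of all 32851 windows. It was held by 7 of 31 chaperone-list genes with a window, 2 of 30 genes of the response list, 4 of 997 genes higher in positive cells (0.401%), 0 of 876 lower genes and 12 of 8002 genes called neither way (0.150%). Genes were chosen for display after their values were seen. Shown with 15 bases on each side, the element in capitals, are *Dnajc3* (chr14:118937812-118937860, plus), *Creld2* (chr15:88819505-88819553, plus) and *Syvn1* (chr19:6046517-6046565, plus), which were higher, and *Hspa5* (chr2:34772010-34772058, plus) and *Pdia6* (chr12:17266476-17266524, plus), which did not pass the test.
Dnajc3: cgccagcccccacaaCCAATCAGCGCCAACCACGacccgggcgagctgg
Creld2: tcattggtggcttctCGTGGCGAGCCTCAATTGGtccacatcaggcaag
Syvn1: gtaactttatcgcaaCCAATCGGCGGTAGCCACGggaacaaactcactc
Hspa5: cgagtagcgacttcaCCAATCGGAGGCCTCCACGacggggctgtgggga
Pdia6: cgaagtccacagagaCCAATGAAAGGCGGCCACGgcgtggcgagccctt
The log2 differences were 1.21 ± 0.24 for *Dnajc3*, a co-chaperone, 1.15 ± 0.41 for *Creld2*, 1.13 ± 0.39 for *Syvn1*, the ubiquitin ligase of ER degradation, and 1.03 ± 0.42 for *Pdia6* (adjusted p = 0.000892, 0.0497, 0.0416 and 0.0864). The call of *Dnajc3* held without each library in turn, whereas those of *Creld2* and *Syvn1* were lost without any 1 of the 6 libraries (adjusted p of up to 0.159 and 0.154).

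Further along the secretory route, 23 of 58 genes of transport between ER and Golgi were higher and 0 lower. *Mia3* (TANGO1), which loads bulky cargo, had 93.9, 80.5 and 59.5 normalised CPM against 15, 17.5 and 16.2 (log2 2.26 ± 0.28, adjusted p = 6.41e-07). The retrieval receptors *Kdelr2* and *Kdelr3* were higher (1.43 ± 0.26 and 5.25 ± 0.84; adjusted p = 0.000237 and 4.62e-05), as were the coat subunits *Copb2* and *Copg1* (both 1.20; adjusted p = 0.00113 and 0.00146) and the COPII protein *Sec24d* (1.77 ± 0.32, adjusted p = 0.000235). In the last step, 16 of 37 genes of granules and regulated exocytosis were higher and 6 lower. The higher ones included the small GTPases *Rab27a* (151, 124 and 94.3 against 4.91, 6.22 and 3.03) and *Rab27b* (184, 151 and 112 against 4.35, 7.72 and 10.2), their effector *Sytl2* (341, 244 and 157 against 2.1, 3.96 and 2.16, log2 6.49 ± 0.53, adjusted p = 3.97e-10), *Rab3d* and *Syt7*. The actin-severing protein *Scin* was at 399, 317 and 254 against 6.52, 5.71 and 12 (log2 5.32 ± 0.41, adjusted p = 1.14e-10). Those lower included *Cplx2*, *Cadps*, *Rab3c* and *Snap25*, genes of the neuroendocrine release machinery: *Cplx2* was at 0.717, 0 and 0.113 against 8.35, 4.6 and 6.49 and *Cadps* at 0, 0.164 and 0 against 3.65, 2.59 and 3.6 (adjusted p = 0.000373 and 0.00134). The list thus held genes called in both directions.

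Of the Paneth list 25 of 25 tested members were higher, with a median of 6.37. The list has 31 genes, of which 4 had 0 counts in all 6 libraries. A gene can pass the filter through its counts in 1 group alone, and members low in every group were not tested. The share of tested members that were higher therefore leaves silent members out. The list includes *Guca2a*, whose regulatory sequence drove the sort, and *Itln1* and *Ang4*, which are counted in the mucus list as well. The list's genes took 13.4, 17 and 7.7% of nuclear coding counts in the positive libraries and 0.193, 0.443 and 0.142% in the negative ones. *Lyz1*, lysozyme (chromosome 10, 117287797 to 117292868), stood at 9649, 16159 and 5529.5 against 60.6, 225 and 62.3 (log2 6.49 ± 0.82, adjusted p = 9.89e-07), and the alpha-defensin *Defa24* at 22507, 26056 and 9784 against 152, 372 and 89.6 (log2 6.57 ± 0.77, adjusted p = 2.86e-07). The metalloprotease *Mmp7*, which cleaves the defensin precursors, was at 425, 1118 and 287 against 4.63, 17.4 and 4.47 (log2 6.11 ± 0.65, adjusted p = 5.66e-08). All 11 tested alpha-defensins were higher, of 22 in the family, and 8 of the 22 had 0 counts in all 6 libraries. Defensin genes are near-identical copies and reads that fit several copies are not in the counts, so their levels are uncertain, as are those of *Lyz1* and *Lyz2*. *Pnliprp2*, a lipase of Paneth cells, was at 111, 139 and 171 against 0.631, 2.4 and 1.44, the lectin *Itln1* at 4087, 7592 and 5679 against 27.8, 98.3 and 31.5 and the ribonuclease *Ang4* at 1041, 1954 and 821 against 7.65, 32.8 and 5.7. Positive replicate 2 was the highest and replicate 3 the lowest for *Lyz1*, *Defa24* and *Mmp7*. Among the negative libraries replicate 2 was the highest for the same 3 genes. Genes of the brush-border list took the largest share of coding counts in positive replicate 3 (0.594, 0.498 and 1.17% in replicates 1 to 3). The part that the number of Paneth cells and enterocytes in each library has in these differences was not tested.

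The coding RNA of positive cells was concentrated in fewer genes than that of negative cells. Nuclear coding counts reached 50% of their total with 176, 103 and 235 genes in the positive libraries and 888, 739 and 734 in the negative ones. The 10 most abundant genes held 31.4, 33.2 and 27% and 6.91, 7.44 and 8.13%. Per kilobase of exon, *Defa24* was the highest nuclear coding gene of positive cells (mean 46418 normalised CPM per kb), followed by other defensins, *Lyz1* (8271), *Zg16* (6489), *Tff3* (6219) and *Itln1* (5071). In negative cells the highest were the ribosomal protein *Rplp1* (1988), the lectin *Lgals2* (1364) and the histone *Hist1h1b* (1049). *Lgals2* was as prominent in positive cells, at 1632, with no call (log2 0.26 ± 0.43, adjusted p = 0.724).

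**Figure D2:**
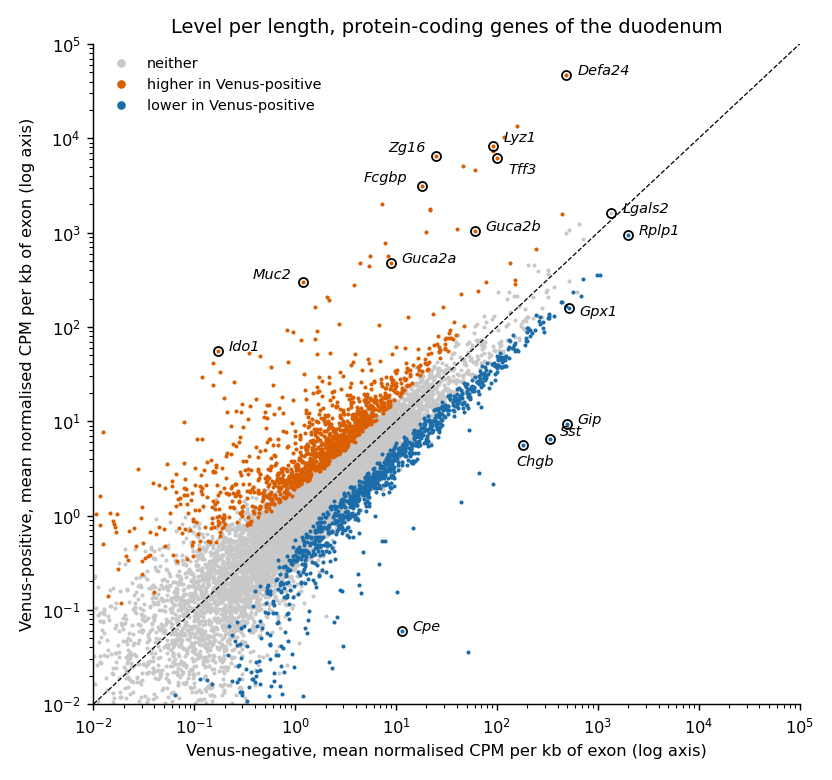
Mean normalised CPM per kb of exon (log axes) of tested nuclear protein-coding genes in Venus-negative (x axis) and Venus-positive cells (y axis), orange where higher and blue where lower at an adjusted p of 0.05, grey otherwise. The dashed line marks equal levels and genes under 0.01 in either sort are not drawn; *Defa24* is the highest point on the y axis, and *Gip* lies far below the line.

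Transcription factors of the secretory lineage were higher in 15 of 24 tested cases and lower in 0. *Atoh1*, which commits cells to secretory fates, was at 79.9, 81.7 and 75.6 against 1.47, 1.75 and 0.433 (adjusted p = 1.67e-08). *Spdef*, which drives goblet and Paneth maturation, was at 41, 32.3 and 26 against 0.982, 0.389 and 1.08 (log2 5.33 ± 0.53, adjusted p = 1.54e-08), and *Gfi1*, which separates these cells from endocrine ones, at 9.22, 9.77 and 7.09 against 0.0702, 0.13 and 0.433 (log2 5.33 ± 0.91, adjusted p = 0.000111). *Klf4* (160.2, 145 and 114 against 14.1, 20.7 and 13.7), *Foxa3* (65.8, 65.1 and 51.2 against 5.19, 8.36 and 4.54) and *Bhlha15* (4.71, 7.39 and 6.75 against 0.0702, 0.584 and 0.577) were higher too (adjusted p = 6.41e-07, 1.42e-05 and 0.00764). Of 33 enterocyte factors 2 were higher and 1 lower, shares of 6.06% and 3.03% beside 8.88% and 8.08% of all genes, and library size alone gave 6 higher and 1 lower. Without positive replicate 1 or 3, 1 was higher and 3 lower, and without negative replicate 2 or 3, 1 was higher. The 1 lower with all libraries was the nuclear receptor *Nr5a2* (3.79, 6.32 and 7.54 against 24.6, 17.2 and 14.4, log2 -1.67 ± 0.31, adjusted p = 0.000403). In the Notch pathway the ligands *Dll4* (34.6, 37.8 and 37.4 against 3.51, 3.44 and 3.75) and *Dll1* (55.6, 31.2 and 30.4 against 8.07, 11.5 and 8.65) were higher (log2 3.36 ± 0.37 and 2.05 ± 0.42, adjusted p = 9.11e-08 and 0.00117). The receptor *Notch1* was lower (2.66, 6.32 and 6.53 against 19.6, 14.8 and 10.2, adjusted p = 0.012, up to 0.0866 without negative replicate 1 or positive replicate 1, and 0.0761 with library size alone).

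**Figure D3:**
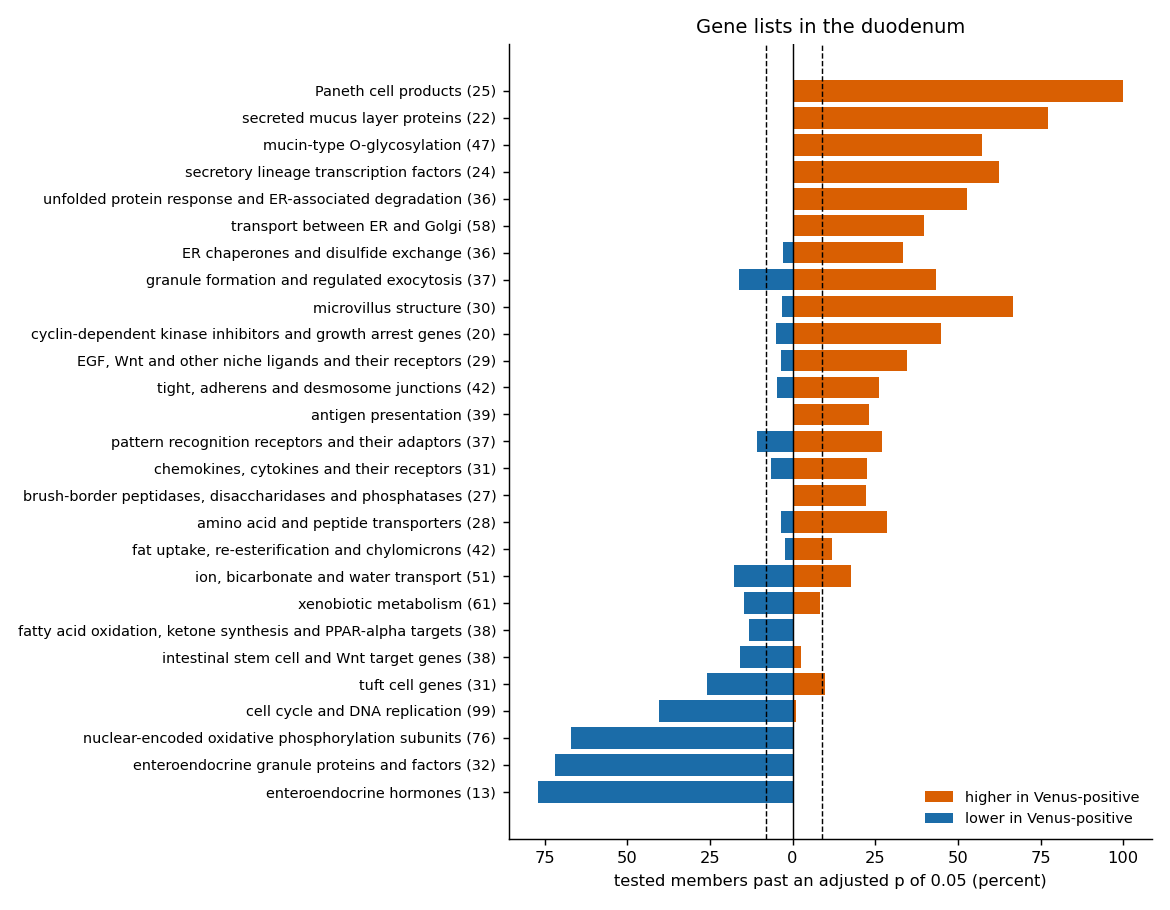
Percent of tested members of each gene list that were higher (orange, to the right) or lower (blue, to the left) in Venus-positive cells at an adjusted p of 0.05, with the number tested in brackets. Dashed lines mark the 8.88% and 8.08% of all tested genes; the Paneth list reaches 100% on the right and the enteroendocrine hormones 76.9% on the left.

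Among the largest differences outside these lists were receptors and enzymes. *Ramp1*, the partner that makes the calcitonin receptor-like receptor respond to the neuropeptide CGRP, was at 108, 103 and 55 against 0.281, 0.519 and 0.288 (log2 7.89 ± 0.56, adjusted p = 2.44e-11). *Ptgdr*, the receptor of prostaglandin D2, was at 8.71, 12.9 and 4.95 with 0 counts in all 3 negative libraries, which makes it at least 42.7-fold higher against a floor of 3 counts per library. *Gm379* (6.96, 11.4 and 5.18) and *Defa27* (4.4, 7.55 and 3.83) also had 0 counts in the negative libraries and were at least 37.9-fold and 25.4-fold higher. The annexin *Anxa3* was at 32.7, 35 and 17.3 with at most 1 count in any negative library. *Ido1*, which opens the kynurenine pathway of tryptophan breakdown, stood at 94.7, 103 and 107 against 0.21, 0.584 and 0.144 (log2 8.28 ± 0.65, adjusted p = 1.86e-10), and *Wars*, the tryptophanyl-tRNA synthetase, at 116, 125 and 102 against 10.9, 8.82 and 8.87 (log2 3.58 ± 0.32, adjusted p = 2.87e-09). The later kynurenine enzymes *Kmo*, *Kynu* and *Haao* were too low to test. *Rnase1*, a secreted ribonuclease, was at 54, 59.3 and 105 against 1.54, 0.778 and 1.08, and *Clps*, colipase, at 233, 324 and 252 against 0.912, 6.16 and 2.88 (adjusted p = 7.25e-08 and 5.31e-05). Both are abundant in the pancreas. Of 26 pancreatic genes, 17 had 0 counts in all 6 libraries, *Cpa1*, *Cel* and *Pnlip* among them, and 3 of 7 tested were higher, *Rnase1*, *Clps* and *Zg16*, which is counted in the mucus list as well. The part of pancreatic RNA in these levels was not tested.

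Ion and water transport genes were called in both directions, with 9 of 51 genes higher and 9 lower, while library size alone gave 10 higher and 0 lower. Of those higher, *Clca1* is counted in the mucus list and *Slc26a2* in the O-glycosylation list as well. The number lower was 2 without positive replicate 1, 3 without positive replicate 2 or negative replicate 3 and 5 without negative replicate 2. Higher in positive cells were the potassium channels *Kcnk6* (46, 46 and 29.1 against 0.702, 0 and 0.288), *Kcnk1* and *Kcnma1*, and *Scnn1a*, the alpha subunit of the epithelial sodium channel (77.2, 41.9 and 35.5 against 1.61, 0.778 and 1.23, log2 5.41 ± 0.54, adjusted p = 1.54e-08). The genes of its beta and gamma subunits, *Scnn1b* and *Scnn1g*, had 0 counts in all 6 libraries. Lower were *Cftr*, the potassium channel partners *Kcnq1* and *Kcne3*, and the carbonic anhydrases *Car4* and *Car13*. *Kcne3* had a log2 difference of -1.71 ± 0.55 and *Kcnq1* of -1.19 ± 0.35 (adjusted p = 0.0296 and 0.0181), and these calls were lost without any library but negative replicate 1 for *Kcne3* (adjusted p of up to 0.107) and without positive replicate 1 or negative replicate 3 for *Kcnq1* (up to 0.123), and with library size alone for both (0.104 and 0.18).

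Several signals to neighbouring and immune cells were higher in positive cells. The chemokine *Ccl6* was at 1466, 1880.2 and 827 against 7.16, 23.1 and 11.6 (log2 6.64 ± 0.55, adjusted p = 4.78e-10) and *Ccl9* at 136, 235 and 97.8 against 3.51, 6.03 and 5.34 (log2 4.97 ± 0.58, adjusted p = 2.43e-07), while *Ccl25*, which attracts lymphocytes to the small intestine, was lower (94.1, 122 and 118 against 301, 428 and 411, log2 -1.77 ± 0.28, adjusted p = 5.03e-05). In all, 7 of 31 chemokines, cytokines and receptors were higher and 2 lower, or 1 lower with library size alone. *Cx3cl1* (2.35 ± 0.31), *Cxcl16* (2.59 ± 0.54) and the interleukin 22 receptor *Il22ra1* (1.54 ± 0.32) were among the higher ones (adjusted p = 2.31e-06, 0.00124 and 0.00133). Of 29 niche ligands and receptors, 10 were higher and 1 lower. *Bmp2* was at 16.2, 13.1 and 13.7 against 1.75, 2.79 and 1.66, the epidermal growth factor family ligands *Tgfa* and *Btc* at 12.2, 13.4 and 8.44 against 2.67, 2.79 and 2.81 and at 16.7, 19.3 and 9.57 against 2.88, 2.79 and 2.09, and the receptors *Fgfr2* and *Kit* at 68.7, 58 and 41.2 against 9.4, 11 and 5.77 and 24, 17.2 and 21.7 against 4.0, 7.46 and 2.45 (adjusted p = 7.41e-07, 5.70e-05, 0.00412, 9.89e-07 and 0.00479). *Wnt3*, the Wnt ligand of Paneth cells, had a log2 difference of 2.34 ± 1.03 and did not pass (adjusted p = 0.119). *Kitl*, the ligand of *Kit*, was lower (-1.17 ± 0.35, adjusted p = 0.020, up to 0.0681 without negative replicate 2 or positive replicate 1 or 3, and 0.234 with library size alone).

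Of 37 pattern recognition genes, 10 were higher (27.0%) and 4 lower (10.8%), beside 8.88% and 8.08% of all genes. The number lower was 2 without negative replicate 2 or positive replicate 2 and 1 with library size alone. *Nlrc4* and its partners *Naip5* and *Naip6*, which detect flagellin, had log2 differences of 1.18 ± 0.25, 1.78 ± 0.32 and 2.12 ± 0.35 (adjusted p = 0.00139, 0.000237 and 6.15e-05), and the viral RNA sensors *Ddx58* and *Ifih1* of 1.68 ± 0.31 and 1.36 ± 0.31 (adjusted p = 0.000371 and 0.00257). The Naip genes are close copies, and reads that fit several of them are not in the counts, so their levels are uncertain. The inflammasome adaptor *Pycard* was lower (64.5, 103 and 91.4 against 282, 335 and 339, log2 -1.88 ± 0.40, adjusted p = 0.00167) and so was *Il18* (-1.41 ± 0.35, adjusted p = 0.00618, but 0.0693 with library size alone and 0.199 with length and GC trends removed). Antigen presentation and interferon genes were higher in 9 of 39 cases and lower in 0, and in 4 of 39 without negative replicate 1 or 2 and 5 without positive replicate 1 or 3. Library size alone gave 16 higher. The class I molecules *H2-K1* (259.6, 231 and 509 against 85.9, 109 and 132) and *H2-D1* (194, 192 and 334 against 68.1, 91.1 and 109) kept their calls without each library (adjusted p = 0.00131 and 0.00313). *Ptprc*, which encodes CD45, was at 0, 0 and 0.225 in positive and 0.21, 0.973 and 0.288 in negative libraries. Genes of T and NK cells summed to 2.56, 10.3 and 8.22 against 2.53, 18.2 and 15.4 normalised CPM and those of B and plasma cells to 17.9, 21.8 and 18.7 against 24.9, 33.3 and 36, with 4 of 27 and 5 of 26 listed genes at 0 in all libraries. Of the 27 genes of the myeloid list, 12 had 0 counts in all libraries, *Csf1r* and *Adgre1* among them. Only *Lyz2* and *Kit* were higher there, with summed levels of the list at 37.5, 48 and 32.5 against 6.52, 15.4 and 6.85 normalised CPM. Genes of stroma, muscle and nerve summed to 3.99, 1.81 and 2.81 against 33.4, 17.2 and 13.3, with 1 of 13 tested members lower and 6 of 29 listed members at 0 in all libraries, and the part of these cells in the differences was not tested.

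Of 30 microvillus genes, 20 were higher in positive cells and 1 lower (median 1.06), although without negative replicate 1 the count fell to 10, without negative replicate 2 and without positive replicate 3 to 11, and without positive replicate 1 to 13. *Krt20*, a keratin of mature villus cells, was at 480.2, 379 and 424 against 58.1, 96 and 102 (log2 2.32 ± 0.36, adjusted p = 3.48e-05) and *Krt18* at 365, 365 and 305 against 99, 84.7 and 98.4 (log2 1.88 ± 0.28, adjusted p = 1.30e-05). The bundling protein *Vil1* stood at 277, 208 and 321 against 112, 118 and 141 (log2 1.12 ± 0.29, adjusted p = 0.0077). Of 27 genes of a brush-border list, chiefly hydrolases, 6 were higher and 0 lower, and 3 were higher without positive replicate 3 and 12 with library size alone. The list also holds the cadherins *Cdhr2* and *Cdhr5*, which are 2 of the 6 and are counted among the microvillus genes as well, the amino acid transporter *Slc6a19* and the lipid transfer protein *Mttp*. *Enpp3*, an ectonucleotidase, was at 86.4, 89.98 and 115 against 16.3, 31.7 and 17.1 (log2 2.16 ± 0.33, adjusted p = 2.61e-05), and *Cdhr5* at 209.9, 188 and 262 against 66, 66 and 80.3 (adjusted p = 0.000781). Sucrase-isomaltase *Sis*, at 114, 107 and 185 against 190.0, 257 and 237, did not pass (log2 -0.76 ± 0.31, adjusted p = 0.0897). Of 42 genes of fat uptake and chylomicrons 5 were higher (11.9%, beside 8.88% of all genes) and 1 lower. The number higher was 3 without negative replicate 1, negative replicate 3 or positive replicate 3, 13 with library size alone and 10 with length and GC trends removed. *Apobec1*, the editing enzyme of apolipoprotein B RNA, was at 35, 26.9 and 25.4 against 3.51, 6.03 and 6.2 (log2 2.47 ± 0.35, adjusted p = 7.14e-06), and *Apoa4* at 1089.9, 732 and 1829 against 364, 468 and 508 (adjusted p = 0.0386, and up to 0.174 without any library but positive replicate 2). Positive replicate 3 was the highest of the positive libraries for *Sis*, *Apoa4* and *Cdhr5*. Junction genes were higher in 11 of 42 cases and lower in 2, and 7 were higher without negative replicate 2 and 18 with library size alone. The claudin *Cldn4* (26.1, 43.7 and 33.7 against 3.37, 8.95 and 6.7, log2 2.44 ± 0.53, adjusted p = 0.00203) was among them.

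In a list of 41 aminoacyl-tRNA synthetases and genes of amino acid synthesis and starvation, 8 were higher and 2 lower. The C/EBP-ATF response element TTGCATCA, bound by ATF4 in the amino acid response, lay in 0.895% of all promoter windows on either strand. It was held by 8 of the 29 members with a window, by 20 of 997 higher genes (2.01%), 6 of 876 lower genes (0.685%) and 49 of 8002 genes called neither way (0.612%). Of the 8 members, *Nupr1*, *Pycr1*, *Vldlr*, *Aars* and *Tars* were higher. *Slc7a11*, *Yars* and *Iars* did not pass the test (edgeR adjusted p = 0.756, 0.0853 and 0.868). Of the higher genes with the element, 4 chosen after their values were seen are shown with 15 bases on each side: *Nupr1* (chr7:126625558-126625595, minus), *Pycr1* (chr11:120643829-120643866, minus), *Vldlr* (chr19:27216805-27216842, plus) and *Herpud1* (chr8:94386302-94386339, plus).
Nupr1: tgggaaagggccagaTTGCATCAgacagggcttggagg
Pycr1: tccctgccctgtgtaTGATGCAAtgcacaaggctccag
Vldlr: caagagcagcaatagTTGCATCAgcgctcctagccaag
Herpud1: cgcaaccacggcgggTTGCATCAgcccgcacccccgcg
*Nupr1*, a stress-induced nuclear protein, was at 18.6, 20.6 and 9.23 against 0.0702, 0.519 and 0.216 (log2 5.85 ± 0.78, adjusted p = 2.56e-06), and *Pycr1*, the last enzyme of proline synthesis, at 1.33, 2.96 and 4.05 with at most 1 count in any negative library. *Aars*, the alanyl-tRNA synthetase, was higher by 1.56 ± 0.29, *Vldlr* by 3.16 ± 0.52 and *Herpud1* of ER degradation by 1.83 ± 0.32 (adjusted p = 0.00038, 6.54e-05 and 0.000168). *Atf4* itself was higher by 0.83 ± 0.25 (adjusted p = 0.0217, and up to 0.123 without negative replicate 1 or 3 or positive replicate 1), whereas its classical target *Asns* did not pass (0.95 ± 0.45, adjusted p = 0.152). *Wars* had the smallest p of the list. Of 28 amino acid transporters 8 were higher and 1 lower, and 4 were higher without negative replicate 2 and 5 without negative replicate 3 or positive replicate 1. The exchangers *Slc1a5* (18.2, 23 and 25.9 against 7.09, 11.3 and 9.44) and *Slc1a4* (8.81, 6.49 and 9.9 against 2.1, 0.648 and 0.216) were among them (adjusted p = 0.00621 and 0.00193).

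In sugar metabolism the hexokinases *Hk1* (22.4, 14.2 and 12.3 against 0.561, 0.259 and 1.3, log2 4.53 ± 0.59, adjusted p = 1.67e-06) and *Hk2* (68, 83.2 and 49.9 against 13.5, 9.34 and 13.8, log2 2.45 ± 0.35, adjusted p = 6.90e-06) and the glucose transporter *Slc2a1* (19.4, 20.9 and 30.6 against 4.14, 6.94 and 6.06, adjusted p = 0.000467) were higher, while *Khk*, which phosphorylates fructose, was lower (24.4, 23.8 and 43.9 against 55.1, 88.2 and 76.6, log2 -1.26 ± 0.30, adjusted p = 0.00483, and 0.138 with library size alone). Most other glycolytic enzymes gave no call, and 4 of 40 genes of the glycolysis list were higher and 3 lower, shares near the 8.88% and 8.08% of all genes. The number lower was 1 without negative replicate 1 or 3 or positive replicate 1 or 2 and 5 without positive replicate 3, and library size alone gave 8 higher and 1 lower. Fatty acid oxidation genes were lower in 5 of 38 cases (13.2%, beside 8.08% of all genes) and higher in 0. Without negative replicate 2, negative replicate 3 or positive replicate 1, 2 were lower. *Echs1* (-1.22 ± 0.30, adjusted p = 0.00514, and 0.103 with library size alone) was among those lower. Library size alone gave 1 lower and 1 higher. Xenobiotic metabolism gave 5 higher and 9 lower of 61 (8.20% and 14.8%, beside 8.88% and 8.08% of all genes), with *Gsta4* at 256, 196 and 161 against 23.3, 42.5 and 45.1 (adjusted p = 3.05e-05) and the glutathione peroxidase *Gpx1* at 168, 297 and 216 against 565, 897 and 759.5 (adjusted p = 0.00239). The number lower there was 2 without positive replicate 1 or 2, 3 without negative replicate 2, 4 without negative replicate 3, 2 with library size alone and 5 with length and GC trends removed.

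Enteroendocrine genes were higher in the negative sort. Of 13 tested hormone genes 10 were lower in positive cells and 0 higher, and of 32 genes of their granules, serotonin synthesis and transcription factors 23 were lower and 0 higher (medians -4.95 and -4.36). *Gip*, the incretin of K cells, was at 6.04, 7.39 and 5.74 against 226, 279 and 512 (log2 -5.72 ± 0.52, adjusted p = 2.87e-09). Somatostatin *Sst* stood at 4.1, 7.14 and 2.7 against 217, 268 and 234 (log2 -5.67 ± 0.60, adjusted p = 5.72e-08) and cholecystokinin *Cck* at 1.95, 4.02 and 2.48 against 87.1, 109 and 164 (log2 -5.40 ± 0.57, adjusted p = 5.11e-08). Chromogranin B, *Chgb*, was at 16.9, 23.6 and 5.74 against 569.7, 479.9 and 454, the serotonin enzyme *Tph1* at 1.13, 1.81 and 1.46 against 20.8, 22.9 and 33.2 and carboxypeptidase E, *Cpe*, at 0, 0.246 and 0.225 against 24.9, 28.1 and 36.3, with at most 3 counts in any positive library. *Scg5*, a chaperone of prohormone convertase, had 0 counts in all positive libraries and 5.68, 8.23 and 5.19 in the negative ones, at least 21.4-fold lower. Secretin, *Sct*, did not follow, at 23, 22 and 15.9 against 22.4, 26.3 and 85.4 (log2 -1.14 ± 0.43, adjusted p = 0.0688). The sorts overlapped in it, and negative replicate 3 was the highest. *Afp*, alpha-fetoprotein, was also lower, at 0.41, 0.493 and 0.675 against 35.6, 34.2 and 34.5 (log2 -6.03 ± 0.71, adjusted p = 4.58e-07). Tuft cell genes were lower in 8 of 31 cases (25.8%) and higher in 3 (9.68%), beside 8.08% and 8.88% of all genes, and 20 gave no call. The channel *Trpm5* was at 1.23, 0.0821 and 2.36 against 8.14, 6.81 and 9.01 and *Rgs13* at 0.41, 0.821 and 0.788 against 6.03, 8.82 and 8.58 (adjusted p = 0.00342 and 0.0039), but *Krt18*, *Rgs2* and *Cd24a*, which are not confined to tuft cells, were the 3 higher ones. *Cd24a* is counted in the Paneth list and *Krt18* among the microvillus genes as well. Without positive replicate 3, 4 tuft genes were lower, and 5 were without negative replicate 2 or 3 or positive replicate 1 or with library size alone.

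Cell cycle genes were lower in positive cells. Of 99 cell cycle and replication genes 40 were lower and 1 was higher (median -1.21). *Gmnn*, geminin, was at 3.69, 6.32 and 7.43 against 23.1, 20.03 and 27.4 (log2 -2.01 ± 0.34, adjusted p = 9.22e-05) and *Ccnb2*, cyclin B2, at 2.25, 5.99 and 9.23 against 23.9, 21.8 and 22.6 (log2 -1.97 ± 0.42, adjusted p = 0.00152). The phosphatase *Cdc25b* was the one higher (26, 16 and 17.4 against 6.1, 3.63 and 4.97, adjusted p = 0.00254). The count of lower genes was 15 without positive replicate 1, 22 without positive replicate 2 or negative replicate 2, 24 without negative replicate 3 and 7 under library size alone. Of 38 stem cell and Wnt target genes 6 were lower and 1 higher, and 1 was lower without positive replicate 1, 2 without negative replicate 1, 3 without negative replicate 2 and 1 with library size alone. *Cd44* was at 3.99, 4.19 and 7.09 against 24.1, 22 and 21.9 (log2 -2.16 ± 0.37, adjusted p = 0.000107), and the stem cell receptor *Lgr5*, at 1.84, 0.0821 and 3.04 against 9.89, 4.34 and 2.88, did not pass (adjusted p = 0.092). Inhibitors of the cell cycle went the other way, with 9 of 20 higher and 1 lower. *Mxd1*, a repressor that opposes Myc, was at 222, 277 and 244 against 22.2, 34.2 and 42.2 (log2 2.91 ± 0.40, adjusted p = 4.03e-06) and *Cdkn1a* (p21) at 37.3, 33.4 and 32 against 12.6, 8.75 and 15.4 (log2 1.48 ± 0.31, adjusted p = 0.00134).

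Several further groups had many lower members, and the counts of these moved with the scaling. Of 76 nuclear-encoded subunits of oxidative phosphorylation 51 were lower and 0 higher (median -1.22). *Ndufb5* of complex I was at 30.4, 52.8 and 39.5 against 105, 145 and 133 (log2 -1.64 ± 0.29, adjusted p = 0.00017) and *Cox7b* of complex IV at 116, 160.0 and 79.7 against 316, 390.4 and 329 (log2 -1.54 ± 0.29, adjusted p = 0.00038). The list took 0.981, 1.2 and 1.3% of nuclear coding counts in positive libraries and 3.75, 4.06 and 3.96% in negative ones. The mitochondrially encoded transcripts *mt-Nd1* (1429.7, 1488 and 819 against 3945, 4607 and 2876) and *mt-Cytb* (2414, 2240.3 and 1096 against 5359.6, 6099 and 3747) were lower as well (edgeR adjusted p = 0.00378 and 0.0111). So were *mt-Nd2*, *mt-Co1*, *mt-Nd4* and *mt-Nd5* (0.00566, 0.0363, 0.0471 and 0.0466). *mt-Nd6* (log2 -0.20 ± 0.33) and the ribosomal RNAs *mt-Rnr1* and *mt-Rnr2* did not pass (0.725, 0.0612 and 0.116). Of the 13 mitochondrial coding genes 5, *mt-Co2* among them, were listed at 0 in all 6 libraries. Ribosomal proteins were lower in 45 of 78 cases, mitochondrial ribosomal proteins in 46 of 77, proteasome genes in 16 of 48 and histones in 36 of 58, and higher in 0, 0, 1 and 0. Without positive replicate 1 the numbers lower were 29 for oxidative phosphorylation, 15 for ribosomal proteins, 25 for mitochondrial ribosomal proteins, 8 for the proteasome and 10 for histones. Negative replicate 2 had a similar weight, with 20 ribosomal protein, 10 proteasome and 13 histone genes lower without it, and positive replicate 3 with 18 ribosomal protein and 23 histone genes. Under library size alone the numbers were 15 for oxidative phosphorylation, 8 for ribosomal proteins, 11 for mitochondrial ribosomal proteins, 3 for the proteasome and 12 for histones.

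Exon length moved with these calls. When coding genes were divided into 5 equal classes by exon length, the shortest class (243 to 2515 bases) had 15.1% lower and 7.31% higher genes and a median log2 difference of -0.46. The longest class had 7.60% lower and 12.9% higher genes and a median of 0.06. When trends with exon length and GC content were removed from each library, 24 oxidative phosphorylation, 24 ribosomal protein, 34 mitochondrial ribosomal protein, 8 proteasome, 7 histone and 32 cell cycle genes were lower. The part that transcript length has in these differences was not tested. In the same setting the enteroendocrine machinery had 22 lower genes, the mucus list 17 higher and the Paneth list 25 higher.

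**Figure D4:**
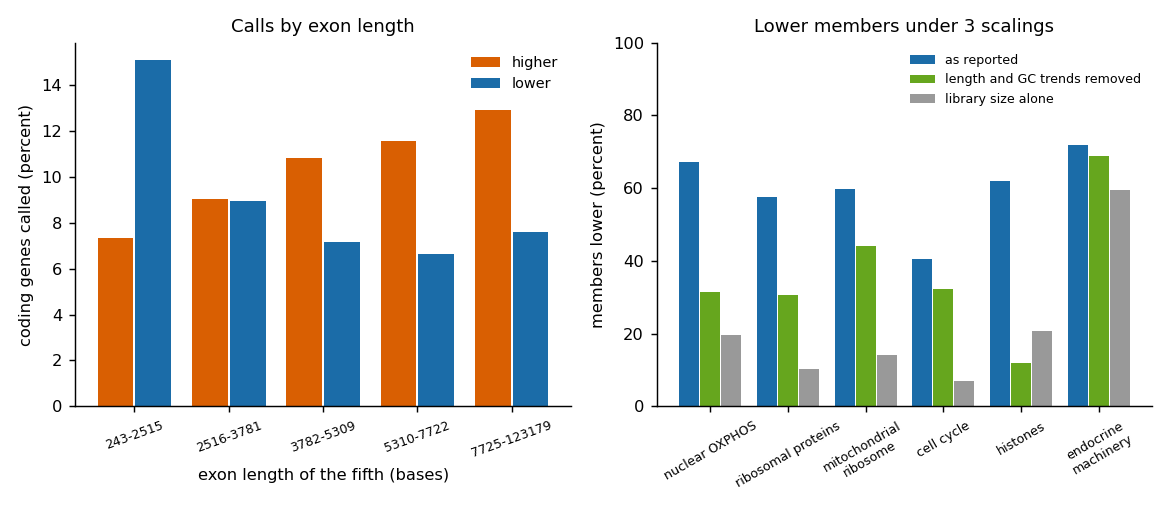
Left, percent of tested coding genes called higher (orange) or lower (blue) in 5 equal classes of exon length in bases. Right, percent of members lower in 6 lists as reported (blue), with length and GC trends removed (green) and with library size alone (grey): the endocrine machinery stays between 59.4% and 71.9%, while oxidative phosphorylation ranges from 19.7% to 67.1%.

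Gene families gave further groups. Of 259 solute carriers 40 were higher (15.4%) and 16 lower (6.18%), and the number lower was 1 without positive replicate 1, 4 without positive replicate 2, 7 without negative replicate 2 or 3 and 2 with library size alone, which gave 62 higher. Keratins were higher in 5 of 12 cases, with *Krt23* at 30.9, 18.1 and 22.1 against 1.26, 2.66 and 3.89 and *Krt7* at 86.6, 77.4 and 59.4 against 30.03, 22.8 and 25.4 (adjusted p = 0.000206 and 0.00217). Matrix metalloproteases were higher in 4 of 9, and in 2 of 9 without negative replicate 1 or positive replicate 2, with *Mmp15* at 52.2, 53.5 and 53.2 against 7.02, 4.8 and 10.3 (log2 2.85 ± 0.33, adjusted p = 2.09e-07). Guanylate-binding proteins, which are induced by interferon, were higher in 5 of 6, but in 1 of 6 without negative replicate 1, negative replicate 2 or positive replicate 2, in 2 without positive replicate 1 and in 3 without negative replicate 3 or positive replicate 3.

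The size of the sort difference in the duodenum was set against the mean of the same difference in the jejunum, ileum and colon by an interaction contrast, in which 803 genes lay above (5.34% of those tested) and 883 below (5.87%). These counts were 480 above without negative replicate 2, 500 without negative replicate 3 and 528 without positive replicate 2, and 548 below without positive replicate 2. Library size alone turned the balance round, with 1209 above and 394 below. The duodenal difference lay above for 14 of 22 mucus genes, 19 of 25 Paneth genes and 18 of 47 O-glycosylation genes, and below for 0, 0 and 3. The Paneth list had a median log2 difference of 6.37 in the duodenum, beside 3.69 (jejunum), 4.24 (ileum) and 0.74 (colon). In the colon 2 of its members were higher. *Zg16* had an interaction log2 of 4.56 (adjusted p = 7.19e-07), from a duodenal log2 difference of 8.04 beside 3.96 (jejunum), 4.77 (ileum) and 1.72 (colon). The opposite held for absorptive genes: the duodenal difference was below for 20 of 27 genes of the brush-border list, 24 of 42 fat uptake genes, 15 of 30 microvillus genes, 18 of 38 fatty acid oxidation genes and 28 of 61 xenobiotic genes, and above for 0, 1, 1, 0 and 2. With library size alone the numbers below were 16, 15, 6, 6 and 18, and for fatty acid oxidation the number was 10 without negative replicate 3 or positive replicate 1 and 9 without positive replicate 2. *Sis* differed by -0.76, 1.71, 3.41 and 2.15 in the 4 regions (interaction -3.18, adjusted p = 2.07e-06), and the carboxylesterase *Ces2e* by -1.01, 1.5, 2.92 and 2.94 (interaction -3.46, adjusted p = 7.19e-07). *Krt18* moved the other way among the microvillus genes (interaction 2.59, adjusted p = 3.18e-06). For cell cycle and stem cell genes the duodenal difference was above for 24 of 99 and 16 of 38 and below for 0 and 0. Both lists had negative medians in every region, less negative in the duodenum than elsewhere. In the duodenum, jejunum, ileum and colon the medians were -1.21, -3.20, -2.73 and -1.33 for the cell cycle. For stem cell genes they were -0.59, -2.84, -2.63 and -1.03. For the cell cycle the number above was 40 with library size alone, 15, 12 and 14 without negative replicate 1, 2 and 3, and 11 without positive replicate 3. The list of tRNA synthetases and amino acid genes was above in 13 of 41 cases and below in 1, or above in 8 without negative replicate 2, with *Wars* at 3.58, -0.23, 0.56 and 0.72 (interaction 3.23, adjusted p = 1.01e-06). Nuclear oxidative phosphorylation genes gave 4 below of 76, a share near that of all genes, or 1 with library size alone, 2 without negative replicate 2 and 7 without positive replicate 3.

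**Figure D5:**
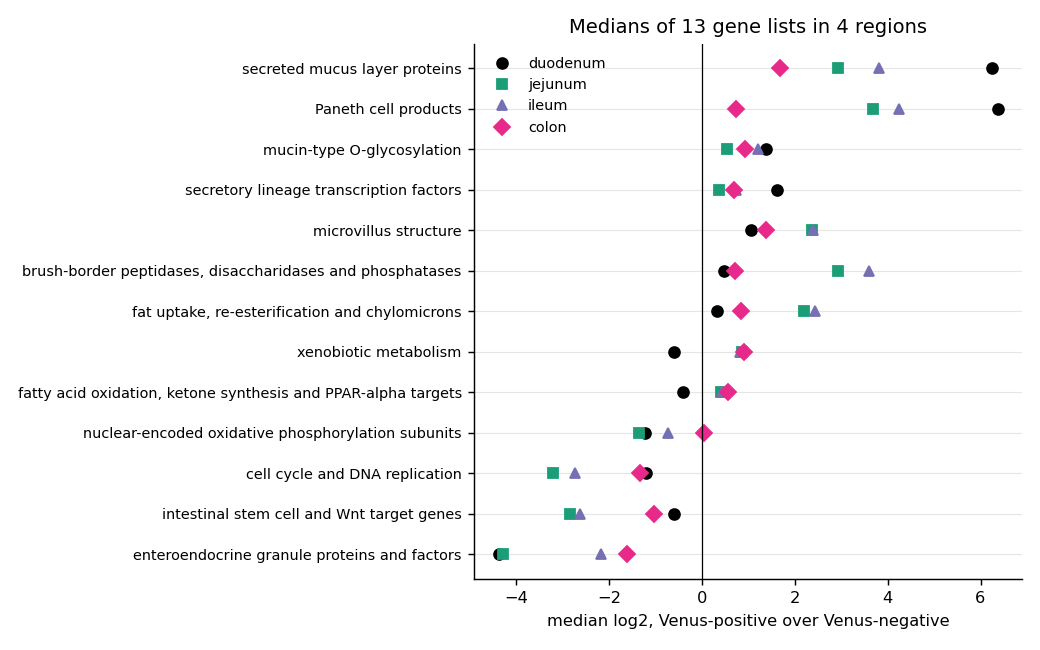
Median log2 difference of Venus-positive over Venus-negative cells over the tested members of 13 gene lists, with a black circle for the duodenum and coloured symbols for the jejunum, ileum and colon. The duodenum is the farthest right for mucus (6.24) and Paneth genes (6.37) and the farthest left for xenobiotic (-0.60) and fatty acid oxidation genes (-0.42).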

How the data were processed

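RNA of 24 sorted libraries was sequenced by the study from 10 ng per sample with a stranded total RNA kit for low input, as single reads of 50 bases. The deposited counts are raw read counts per gene, which the authors obtained with STAR (version 2.5.1 in the submitters' processing notes, which also name CASAVA) on GRCm38. Which annotation and which strand setting they used is not given in the sources used here. Reads that map to several places are not counted. Rows of unassigned reads were dropped, and groups were taken from the tissue and genotype labels.

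A negative binomial quasi-likelihood model was fitted to all 24 libraries with 1 coefficient per group (edgeR 4.0.16 with limma 3.58.1 in R 4.3.3), after removal of low genes (filterByExpr, minimum count 10) and trimmed mean of M values normalisation. Sorts were contrasted within the duodenum, and that contrast against the mean of the same contrast in the other regions. P values were adjusted by Benjamini-Hochberg over 15044 genes, with a threshold of 0.05. SE is the absolute log2 difference over the square root of F. The floor of 3 counts covers counting error only. A p above the threshold does not show equal levels. The procedure was tested on simulated data.

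Genes are named as markers of the series, as the up to 6 members of a list and 4 of a family with the smallest p, as the 15 largest differences in each direction without overlap and with a mean of at least 5 normalised CPM, and as the 15 highest levels per length, with further members given by their values. The members of the lists, and the lists, were chosen with earlier results of these data known, and some genes are counted in more than 1 list. Alternatives were DESeq2 1.42.0, other normalisations, filters, samples, thresholds and a covariate for the i5 index, and, chosen after seeing the data, removal of length and GC trends. Gene positions are from GENCODE M21, and promoter sequences from RefSeq on GRCm38.p6.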

Additional observations from a re-analysis of the deposited data

Results flagged for a closer look

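The difference between sorts in the duodenum differed from the mean of the same difference in the jejunum, ileum and colon by an edgeR interaction contrast at an adjusted p of 0.05, 803 of 15044 genes above (5.34%) and 883 below (5.87%). The counts were 1209 and 394 with library size alone, and 480 to 732 and 548 to 929 without 1 duodenal library. Above were 14 of 22 tested mucus genes, 19 of 25 Paneth genes, 18 of 47 O-glycosylation genes, 16 of 38 stem cell and Wnt target genes, 24 of 99 cell cycle genes and 13 of 41 tRNA synthetase and amino acid genes. The median log2 differences of the stem cell and cell cycle lists were negative in every region. For the cell cycle list the median was -1.21 in the duodenum and -1.33 in the colon. The mean of the other regions includes the colon, where the Paneth list had a median of 0.74 and 2 higher members. Without 1 duodenal library the numbers above were 13 to 19 for the Paneth list, 11 to 16 for stem cell genes and 11 to 30 for the cell cycle. Below were 20 of 27 genes of the brush-border list, 15 of 30 microvillus genes, 24 of 42 fat uptake genes, 18 of 38 fatty acid oxidation genes and 28 of 61 xenobiotic genes. With library size alone the numbers above were 14, 19, 20, 19, 40 and 18 and those below 16, 6, 15, 6 and 18, in the same order. By gene, the interaction log2 was 4.56 for *Zg16*, 3.23 for *Wars* and 2.59 for *Krt18*, and -3.18 for *Sis* and -3.46 for *Ces2e* (edgeR adjusted p = 7.19e-07, 1.01e-06, 3.18e-06, 2.07e-06 and 7.19e-07).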

How the results depend on the processing

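With library size alone 2267 genes were higher and 350 lower, and 1209 above and 394 below in the regional contrast. At an adjusted p of 0.01, 773 were higher and 424 lower. Leaving out 1 duodenal library gave 916 to 1186 higher and 548 to 1054 lower genes, and 480 to 732 above and 548 to 929 below in the regional contrast. The causes were not tested. DESeq2 gave 1625 higher and 1519 lower genes, and edgeR on the duodenal libraries alone gave 1752 and 1426. Of 142 genes named with values and called in the duodenum, DESeq2 kept the call of 142, library size alone of 130 and the removal of length and GC trends of 137. Leaving out 1 duodenal library kept 129 to 136, the fewest without positive replicate 1. With at least 10 counts required in each duodenal library, 117 of the 142 had a value, and 117 kept the call. Of the 142, 125 kept the call in every alternative fit that gave them a value. None of the 142 reversed its direction in these fits. No paired analysis was run, because the labels do not name the mouse of each library and the replicate numbers follow accession order. How the calls would change in a fit blocked on those numbers was not tested. Outside the mitochondrial genome the positive libraries held 5047851 to 5957897 reads on genes and the negative ones 4588462 to 5334574, so low genes rest on few counts in both sorts.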
